A study of Mus musculus with 6 samples.

Results

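SP1 sites flanking genes are described here: sites of the transcription factor SP1 that lie near a gene but not at its end. A site was taken when its midpoint lay more than 1000 bp and at most 10000 bp from the nearest end of any protein-coding gene in RefSeq's annotation of mouse assembly GRCm38.p6, which is mm10. Of 9001 listed SP1 sites, 1864 met this rule, at 1148 of the 2326 protein-coding genes in the listed regions. Their midpoints lay 1002 to 9996 bp from the gene end, 991 of them inside the gene with that end and 873 outside it. Another 1481 sites lay within 1000 bp of a gene end (gene-end sites) and 5656 lay beyond 10000 bp.

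Accessibility was measured by ATAC-seq, in which the Tn5 transposase inserts adapters into open chromatin, in 3 libraries of R1 mouse embryonic stem cells (ESC), which are pluripotent, and 3 libraries of R1 neural progenitor cells (NPC). All 6 libraries carry the strain label R1, and the labels name no treatment, no time in culture and no protocol for making the NPC. Nor do they say if replicate libraries were grown as separate cultures, so the deposited p-values reflect the variation among these libraries only, and that variation may be technical. The authors' deposited table holds their own comparison of NPC with ESC at 500 bp sites on chromosome 1, chromosome 10 and chromosome 11 up to position 20195189; values per library were not analysed here, and the depth of each library is unknown.

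SP1 is a zinc-finger protein found in nearly all mammalian cells that binds GC boxes, short GC-rich elements that recur in the promoters of housekeeping genes and in CpG islands. Promoters of such genes are usually open in every cell type. Sites a few kilobases away from a gene's ends can be alternative promoters, enhancers or other regulatory DNA, and enhancers are typically open in some cell types and closed in others.

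Sequence is shown first for flanking sites that overlap an annotated promoter, because there the letters SP1 is known to bind can be set beside the change in accessibility. RefSeq's promoter windows run from 250 bases before a gene's start to 50 bases after it, 300 bases in all. Of the 1864 flanking sites, 122 overlapped at least 1 such window; 87 of these overlapped a window of the very gene they flank, and the other 35 a window of other genes only. The bases printed are those before the annotated start that lie inside the site, 5′ to 3′ on the gene's strand, from RefSeq on GRCm38.p6, with each GC box (GGGCGG, or CCGCCC on the other strand) in capitals. Shown are the 3 rises and the 3 falls of highest mean signal among the 80 sites holding at least 200 such bases, together with the sites of Nr5a2 and Meis1, all chosen after their values were seen. The first 3 were higher in NPC, the next 3 lower, then come Nr5a2 (lower) and Meis1 (higher).
Mtrf1l promoter: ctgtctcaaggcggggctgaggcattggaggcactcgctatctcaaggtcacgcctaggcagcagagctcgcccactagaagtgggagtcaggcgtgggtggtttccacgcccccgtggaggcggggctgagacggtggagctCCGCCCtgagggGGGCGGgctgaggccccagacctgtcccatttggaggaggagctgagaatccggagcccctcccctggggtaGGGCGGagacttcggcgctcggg
Nbeal1 promoter: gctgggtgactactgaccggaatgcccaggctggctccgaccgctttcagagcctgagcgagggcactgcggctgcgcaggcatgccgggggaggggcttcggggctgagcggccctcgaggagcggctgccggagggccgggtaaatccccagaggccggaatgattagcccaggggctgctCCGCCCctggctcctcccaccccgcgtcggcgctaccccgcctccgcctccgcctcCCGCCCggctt
Ddx50 promoter: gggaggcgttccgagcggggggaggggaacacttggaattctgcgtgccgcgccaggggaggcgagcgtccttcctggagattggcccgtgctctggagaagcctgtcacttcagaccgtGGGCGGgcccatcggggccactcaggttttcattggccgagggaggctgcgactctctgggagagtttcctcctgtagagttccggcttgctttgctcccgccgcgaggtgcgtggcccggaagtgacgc
6430590A10Rik promoter, at the Slc6a15 site: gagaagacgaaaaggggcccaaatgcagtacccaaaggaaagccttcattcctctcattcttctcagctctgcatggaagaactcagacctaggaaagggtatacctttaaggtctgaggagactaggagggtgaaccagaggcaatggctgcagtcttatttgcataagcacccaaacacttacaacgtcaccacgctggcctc
Pfkfb2 promoter, at the Yod1 site: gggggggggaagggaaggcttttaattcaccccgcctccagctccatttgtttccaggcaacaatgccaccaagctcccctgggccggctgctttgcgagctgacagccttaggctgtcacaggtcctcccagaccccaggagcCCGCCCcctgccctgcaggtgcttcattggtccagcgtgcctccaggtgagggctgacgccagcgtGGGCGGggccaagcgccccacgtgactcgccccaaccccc
Ppm1h promoter: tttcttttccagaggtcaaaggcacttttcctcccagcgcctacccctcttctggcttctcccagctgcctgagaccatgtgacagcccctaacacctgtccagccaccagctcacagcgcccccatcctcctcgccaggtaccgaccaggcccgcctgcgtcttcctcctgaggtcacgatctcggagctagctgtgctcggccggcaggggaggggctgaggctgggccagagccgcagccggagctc
Nr5a2 inner promoter: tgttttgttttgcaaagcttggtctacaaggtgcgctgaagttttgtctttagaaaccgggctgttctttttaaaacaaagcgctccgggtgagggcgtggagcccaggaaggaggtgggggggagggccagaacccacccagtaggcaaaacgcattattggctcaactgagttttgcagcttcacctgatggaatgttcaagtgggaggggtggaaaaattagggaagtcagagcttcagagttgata
8430419K02Rik promoter, at the Meis1 site: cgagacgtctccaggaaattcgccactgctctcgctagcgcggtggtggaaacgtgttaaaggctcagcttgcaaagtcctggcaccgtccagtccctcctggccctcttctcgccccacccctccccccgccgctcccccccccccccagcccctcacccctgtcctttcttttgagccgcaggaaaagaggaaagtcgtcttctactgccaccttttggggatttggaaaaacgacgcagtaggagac

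The Mtrf1l stretch (chr10:5823944-5824193, minus strand) held 3 GC boxes in 250 bases at 68% G and C, and its site rose by a log2 fold change (NPC over ESC) of 0.50 ± 0.23 (standard error) in the authors' deposited table, adjusted p 0.0301. Mtrf1l encodes a mitochondrial translation release factor. The Nbeal1 stretch (chr1:60180349-60180598, plus strand) held 2 boxes at 73.2% G and C, with a log2 fold change of 0.82 ± 0.22. That of Ddx50, an RNA helicase gene (chr10:62651219-62651468, minus strand), held 1 box, with 0.55 ± 0.23. These 3 rises were small, and their mean signals of 86.3, 79.0 and 61.5 were far above the flanking median. Here mean signal is the authors' normalized count per site averaged over the libraries.

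Among the falls, the 205 bases at the Slc6a15 site (chr10:103369256-103369460, minus strand) held no GC box at 49.3% G and C, and the site fell by 2.13 ± 0.28, adjusted p 7.32e-12. Slc6a15 encodes a neutral amino acid transporter. The Pfkfb2 stretch (chr1:130715822-130716071, minus strand) held 2 boxes, and its site, nearest to the end of the deubiquitinase gene Yod1, fell by 0.97 ± 0.28. The Ppm1h stretch (chr10:122678512-122678761, plus strand) held none at 64.8% G and C, and its site fell by 0.77 ± 0.32. Nr5a2 encodes a nuclear receptor of pluripotent and early embryonic cells. The window overlapped by its site lay 6656 bp inside the gene (chr1:136953631-136953880, minus strand) and held no GC box at 49.6% G and C. That site fell by 4.83 ± 0.75, adjusted p 3.53e-09. The stretch at the Meis1 site (chr11:18877611-18877860, minus strand) also held none, and that site rose by 1.81 ± 0.33. Boxes thus occurred at both rises and falls, and their absence says only that these 6 letters are not in the window.

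Counted over all overlapped windows, the 6-letter box on either strand occurred in 29 of 37 windows under a flanking site that rose (78.4%) and in 13 of 34 under one that fell (38.2%). It occurred in 44 of 71 under an uncalled one (62.0%). The 95% Wilson intervals, which cover counting error over windows only, were 62.8% to 88.6%, 23.9% to 55.0% and 50.3% to 72.4%. They treat windows as separate, but some windows lay under sites of different calls and count in each group. Also, 18 sites overlapped 2 windows each, 3 sites 3 and 1 site 4. Among all 135 windows under flanking sites the share was 59.3%, against 69.0% of the 997 under gene-end sites, 35.2% of the 3877 in the listed regions and 35.7% of the 32851 in the whole reference table. Median G and C content moved the same way, at 65.7% under rises, 57.3% under falls and 63.3% under uncalled sites. Boxes were also counted per site, over the 80 sites with at least 200 upstream bases. They occurred at 16 of 26 rises (61.5%), 20 of 35 uncalled sites (57.1%) and 5 of 19 falls (26.3%). Counted so, rises were close to uncalled sites. Median mean signal of these sites was 32.5 for the rises, 20.1 for the uncalled and 7.03 for the falls. The parts of base composition and signal in these differences were not tested.

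Of the 1864 flanking sites, 703 were less accessible in NPC (37.7%, 95% Wilson interval 35.5% to 39.9%) and 368 were more accessible (19.7%, 18.0% to 21.6%), at a deposited adjusted p below 0.05. Over all 9001 listed sites 55.4% were called, 32.6% lower and 22.8% higher. The remaining 793 flanking sites were uncalled, which does not show that they stayed the same. Among called sites the median fall was -3.16 and the median rise 3.09 on the log2 scale, and 697 falls and 336 rises exceeded 1 in size. Calls follow the deposited adjusted p, which is not set by fold change over standard error alone. A Reep3 site at -3.14 ± 1.62, with a deposited adjusted p of 0.0298, counts as a fall. With p-values recomputed from fold change over standard error, 583 flanking sites fell and 303 rose. The median standard error was 0.82 at flanking sites and 0.38 at gene-end sites. At gene-end sites the median called fall was -2.43 and the median called rise 1.03. The part of the standard error in these sizes was not tested. The median log2 fold change of all flanking sites was -0.57 (quartiles -2.65 and 0.76), against -0.29 over all listed sites, 0.18 at gene-end sites and -0.67 beyond 10000 bp. Relative to the median of all listed sites the flanking median was thus -0.28. The extremes among flanking sites were -7.57, at Dusp27, and 6.64.

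Gene-end sites had the opposite balance, with 16.1% lower and 24.1% higher, while sites beyond 10000 bp were close to the flanking ones in falls (35.2% lower) and had more rises (23.5% higher). In mean signal flanking sites lay between the other classes. Their median mean signal was 6.36 (quartiles 3.95 and 10.9, range 0.883 to 147), against 18.1 at gene ends and 4.56 beyond. No test of a difference between classes was run, because all sites were measured in the same 6 libraries and sites are not replicates; the intervals cover counting error over sites. Of the flanking sites, 143 overlapped another listed site and so share reads with it.

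Inside the gene, 354 of 991 sites fell (35.7%, 32.8% to 38.8%) and 216 rose (21.8%, 19.3% to 24.5%). Outside it, 349 of 873 fell (40.0%, 36.8% to 43.3%) and 152 rose (17.4%, 15.04% to 20.1%). The median log2 fold changes were -0.43 inside and -0.67 outside. Of the outside sites, 93 lay within another protein-coding gene, where 33.3% fell, and 780 lay in none, where 40.8% fell.

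The shares by distance were as follows, with no test of a trend. Inside, 28.7% of 209 sites at 1 to 2 kb fell, 35.2% of 338 at 2 to 5 kb and 39.4% of 444 at 5 to 10 kb. Rises made up 25.4%, 20.4% and 21.2%, and the medians were 0.03, -0.30 and -0.86. Outside, falls made up 40.0% of 150, 42.0% of 300 and 38.5% of 423 sites over the same distances, and rises 17.3%, 21.3% and 14.7%, with medians of -0.45, -0.79 and -0.67. Of these 6 classes, sites 1 to 2 kb inside a gene were the nearest to the gene-end sites in falls.

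**Figure D1:**
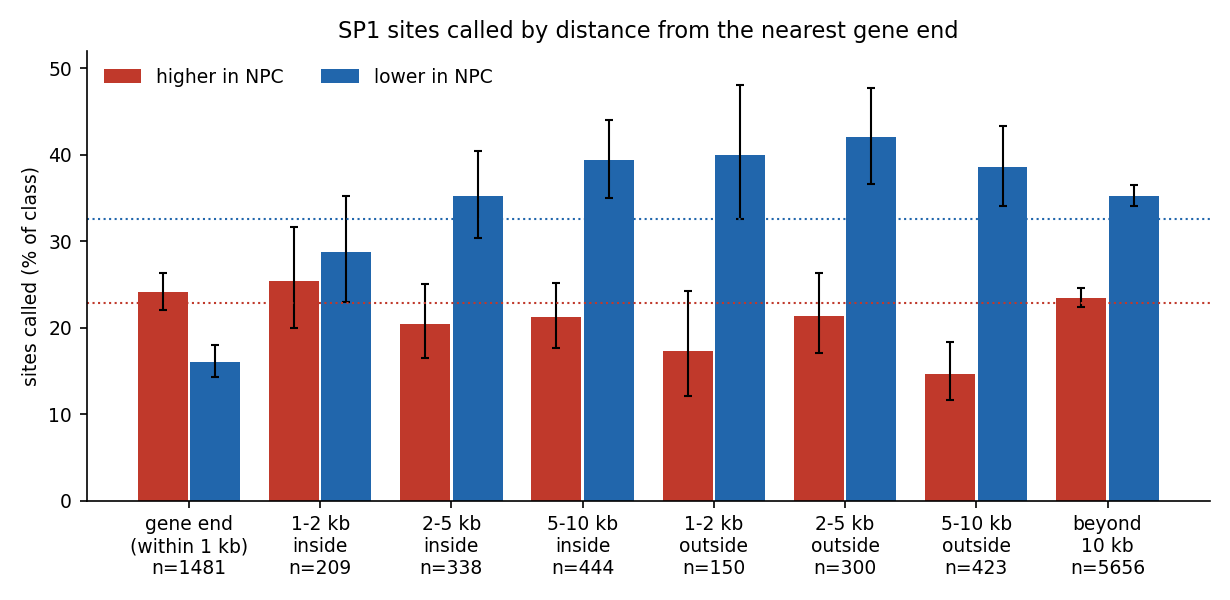
Percent of SP1 sites called higher (red) or lower (blue) in NPC, by distance and position relative to the nearest gene end; bars start at 0, error bars are 95% Wilson intervals over sites and dotted lines mark the shares over all 9001 listed sites. Falls grow from 28.7% to 39.4% with distance inside genes and lie between 38.5% and 42.0% outside, against 16.1% at gene ends. Median mean signal also drops with distance.

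RefSeq's promoter table gave the strand, and so which end is the start, for the genes of 1531 flanking sites and not for those of 333. Among those 333, falls made up 39.8% of the 176 inside the gene and 35.7% of the 157 outside, the reverse order to that over all flanking sites. The 339 sites upstream of a start held the largest share of falls of the 4 sides, 44.5% (39.3% to 49.9%), with 16.5% rises and a median of -1.05. The 439 sites downstream of a start, inside the gene, held 32.6% falls and 23.9% rises, with a median of -0.14. At the other end of the gene the sides were closer, with 37.5% falls in the 376 sites inside and 37.7% in the 377 outside. By chromosome, falls made up 38.4% of 1053 sites on chromosome 1, 38.1% of 687 on chromosome 10 and 29.8% of 124 on the listed start of chromosome 11, where rises reached 28.2%.

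The 122 flanking sites on a promoter window had another balance than the remaining 1742. On a window, 30 fell (24.6%, 17.8% to 32.9%) and 31 rose (25.4%, 18.5% to 33.8%), with a median log2 fold change of 0.30. Off the windows 38.6% fell and 19.3% rose, with a median of -0.67. The called rises on windows had a median of 1.06 on the log2 scale, against 3.18 off them. Median standard errors were 0.42 on windows and 0.85 off them, and the part of the standard error in these sizes was not tested. Gene-end sites split the same way, with 11.7% falls in the 873 on a window and 22.4% in the 608 off one. Sites on windows also carried more signal, a median of 15.6 against 6.16 off them.

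Falls were also counted within 4 classes of mean signal, cut at its quartiles over all listed sites (3.38, 5.78 and 11.4). The median standard error of flanking sites was 1.32 in the lowest class and 0.41 in the highest. From the lowest class to the highest, falls made up 29.1%, 49.6%, 39.0% and 29.8% of flanking sites. At gene ends they made up 25%, 47.9%, 24.2% and 9.50%, and beyond 10000 bp 24.0%, 43.4%, 39.2% and 37.4%. Rises made up 12.0%, 14.2%, 21.8% and 29.4% of flanking sites, 12.5%, 10.3%, 13.8% and 29.4% of gene-end sites and 12.5%, 23.8%, 28.8% and 38.9% of sites beyond. Flanking sites thus fell more often than gene-end sites in each class, with the shares closer in the lower 2 classes. In the third class they fell as often as sites beyond. Signal still differed within the highest class, with medians of 17.1 at flanking sites, 25.9 at gene ends and 15.8 beyond. Flanking sites in that class had 22.6 on a promoter window and 15.8 off one. Those shares are thus not at equal signal. In the highest class, 16.7% of the 78 flanking sites on a promoter window fell (10.01% to 26.5%) and 32.7% of the 358 off one (28.0% to 37.7%). In the third, the shares were 21.7% of 23 and 39.7%. In the lower 2 classes the order was the reverse, with falls at 60% of 5 and 56.3% of 16 sites on a window, against 28.6% and 49.4% off one.

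**Figure D2:**
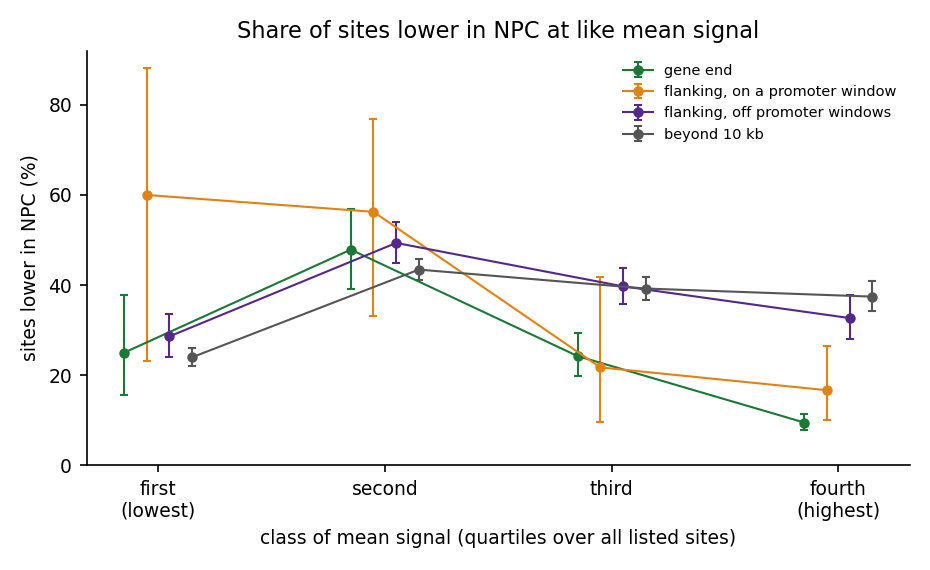
Percent of sites lower in NPC in each class of mean signal (cut at the quartiles over all listed sites), for gene-end sites (green), flanking sites on a promoter window (orange), flanking sites off promoter windows (purple) and sites beyond 10 kb (grey); error bars are 95% Wilson intervals. In the highest class gene-end sites show 9.50% falls, flanking sites on windows 16.7%, flanking sites off them 32.7% and sites beyond 37.4%. Median mean signal still differed within that class, at 25.9, 22.6, 15.8 and 15.8 in the same order.

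The flanking sites of smallest adjusted p inside genes that rose belonged to genes of varied roles. The most significant lay at chr1:172349810-172350310, 8850 bp inside Kcnj10 from its start, which encodes an inward-rectifier potassium channel of astrocytes. In the authors' deposited table it had a mean signal of 44.2 and a log2 fold change of 3.01 ± 0.34, adjusted p 6.14e-16, an 8.07-fold rise. Next came Tmbim1, at 4.21 ± 0.49, and Dbi, at 4.86 ± 0.68. Dbi encodes the acyl-CoA-binding protein, and its site (chr1:120115504-120116004, 2474 bp inside the finish end) was 29.0-fold higher in NPC. Reep3, Rnf217 and F11r followed, at 4.49 ± 0.63, 4.55 ± 0.68 and 4.04 ± 0.61; F11r encodes the tight-junction adhesion protein JAM-A. The gene-end sites of Tmbim1, Dbi and Rnf217 were uncalled, at 0.12 ± 0.43, 0.11 ± 0.21 and 0.34 ± 0.32, while those of Kcnj10, Reep3 and F11r fell. A gene-end site set beside a flanking site could lie at either end of the gene. The one of Reep3 lay 715 bp from an end of Reep3 and 78 bp from an end of Jmjd1c.

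Among inside sites that fell, the most significant lay 5760 bp inside Rab3gap2, which encodes a subunit of a GTPase-activating complex for Rab proteins, with a log2 fold change of -4.84 ± 0.63, adjusted p 1.63e-12. The Slc6a15 site on a promoter window, printed above, followed. Zbtb2, a zinc-finger factor gene, had a site at -4.94 ± 0.68, and Vmn2r85, a vomeronasal receptor gene, one at -5.38 ± 0.74. Tor3a had a site at -4.15 ± 0.57. Of these 5 genes Tor3a alone had a gene-end site, and that site rose, by 1.08 ± 0.39.

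Outside genes, the smallest adjusted p of any of these rises belonged to a site 4410 bp from the end of Traf3ip2, a gene for an adaptor of interleukin-17 signalling (chr10:39659467-39659967). Its mean signal was 48.7 and its log2 fold change 4.41 ± 0.45, adjusted p 9.84e-20, or 21.2-fold. A site 9147 bp past the finish of Tph2, the neuronal tryptophan hydroxylase gene, rose by 5.29 ± 0.67, and one 9714 bp before Fbxo48 by 6.15 ± 0.83, or 71.1-fold. Tns3, a focal-adhesion gene, had a rise of 2.65 ± 0.35, and St18, a zinc-finger factor gene, one of 3.45 ± 0.52. Vxn, whose product promotes neurogenesis in the embryo, had a rise of 3.004 ± 0.44, and it was the only gene of these 6 whose gene-end site rose by more than the flanking site, at 5.73 ± 0.99.

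The outside falls led with Ctdsp2, a gene for a phosphatase of the REST pathway that restrains neuronal genes, whose site 6580 bp upstream (chr10:126971887-126972387) fell by 4.14 ± 0.51, adjusted p 1.62e-13, while its gene-end site rose by 0.59 ± 0.29. Gja1 encodes connexin 43, the gap-junction protein of both ESC and astroglia. Its site 2935 bp upstream (chr10:56374115-56374615) fell by 5.46 ± 0.74, a 43.9-fold lower level, while its gene-end site rose by 0.74 ± 0.37. Kctd3 and Ackr3, an atypical chemokine receptor gene, had upstream sites at -4.88 ± 0.67 and -4.48 ± 0.63. A site 5045 bp outside Lypla1, an acyl-protein thioesterase gene, stood at -4.30 ± 0.64, and one 5019 bp past the finish of Elk3, an ETS factor gene, stood at -3.56 ± 0.55 and lay within another gene. The uncalled flanking sites of highest signal were at Hint3 (65.6), Tsga10 (64.3) and Idh1 (61.4), with log2 fold changes of 0.40 ± 0.22, 0.45 ± 0.23 and 0.26 ± 0.21, and all 3 overlapped a promoter window.

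**Figure D3:**
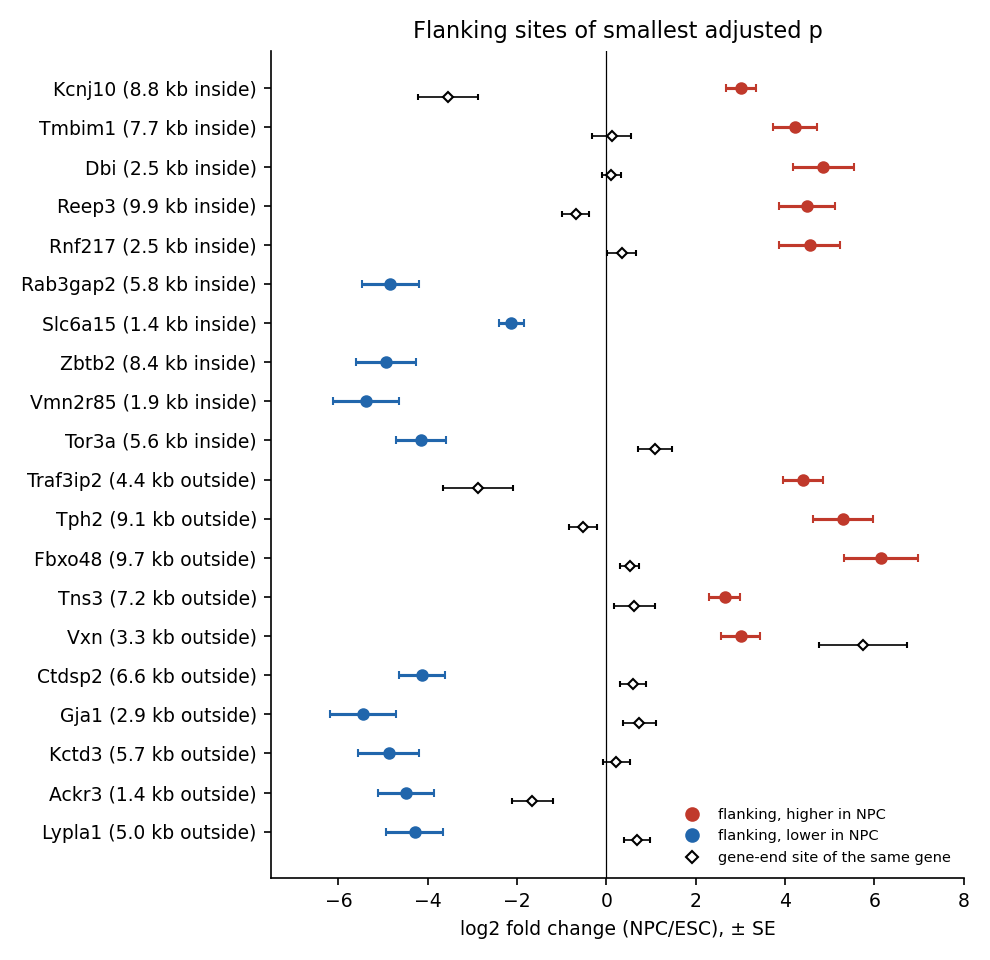
Log2 fold change (NPC over ESC) with its standard error at the 5 flanking sites of smallest adjusted p in each group (inside or outside, higher in red or lower in blue), with the distance to the gene end, and at the gene-end site of the same gene where there is one (open diamond). Flanking values run from -5.46 at Gja1 to 6.15 at Fbxo48, and gene-end values from -3.54 at Kcnj10 to 5.73 at Vxn. Gene-end sites may lie at either end of the gene.

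A gene-end site of the same gene was listed for 1024 flanking sites, at 648 genes with 627 distinct gene-end sites (the one of highest signal where a gene had several). It could lie at either end of the gene. For 533 flanking sites a gene-end site was listed at the same end as the flanking site. The median log2 fold change was -0.60 at the flanking and 0.21 at the gene-end site, and the median difference, flanking minus gene end, was -0.74 (quartiles -2.74 and 0.96). The flanking value was the lower in 638 pairs (62.3%). It was lower in 61.9% of pairs inside the gene and 62.7% outside. The flanking site had the lower mean signal in 862 pairs, with a median of 6.44 against 21.1, and its standard error was larger, at a median of 0.81 against 0.35.

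Calls at both sites of a pair followed each other loosely. Where the gene-end site fell (178 pairs), 46.1% of flanking sites fell and 20.2% rose. Where it rose (270 pairs), 33.0% fell and 25.2% rose, and where it was uncalled (576 pairs), 37.8% fell and 15.97% rose. Both sites rose in 68 pairs and both fell in 82. The flanking site fell while the gene end rose in 89 pairs (8.69%), and the reverse held in 36 (3.52%). Those shares were 4.20% and 1.66% at an adjusted p below 0.01. With gene-end sites at the same end only, they were 8.82% and 3.94% of 533 pairs. Flanking sites of genes with and without a listed gene-end site had like shares, 37.99% of 1024 and 37.4% of 840 lower, and 19.1% and 20.5% higher.

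The widest differences of the first kind were at Hdac4, a class IIa histone deacetylase gene. A site 8361 bp past its finish (chr1:91920168-91920668) fell by 3.61 ± 1.10 while its gene-end site, near the start, rose by 4.91 ± 1.00. Lrrc52 had -5.09 ± 1.15 at the flanking and 2.33 ± 0.56 at the gene-end site. BC034090 had -3.09 ± 1.16 and 4.01 ± 0.78, Gnaz, a G-protein subunit gene of neurons, -3.97 ± 1.23 and 2.98 ± 1.17, and Gm973 -3.47 ± 1.31 and 3.34 ± 0.40. Of these genes, Gm973 alone had the gene-end site at the same end as the flanking site. Of the reverse kind, F11r had 5.04 ± 1.20 at a site 2011 bp upstream and -4.66 ± 0.56 at its gene end. Nr1h4, the bile acid receptor gene, had 4.93 ± 1.15 and -3.42 ± 1.11, and Gstt2, a glutathione transferase gene, 4.87 ± 1.15 and -2.86 ± 0.38. Pm20d1 had 2.95 ± 1.45 and -4.45 ± 1.19. Among these reverse pairs, Gstt2 alone had the gene-end site at the opposite end of the gene. The difference was not tested for any pair, since both sites share the libraries and their covariance is not given in the table.

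**Figure D4:**
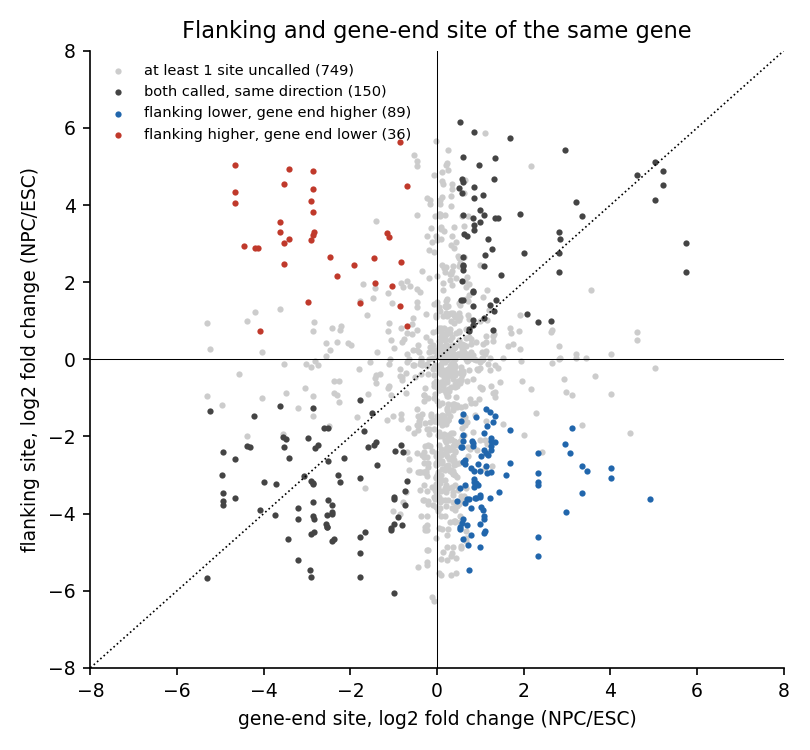
Log2 fold change (NPC over ESC) of the flanking site (vertical) against the gene-end site of the same gene (horizontal) for 1024 pairs; dark points are called the same way at both sites, blue points fell at the flanking and rose at the gene-end site, red points the reverse, and the dotted line marks equal values. Gene-end values crowd around 0 while flanking values spread, with 89 blue and 36 red points. Gene-end sites may lie at either end of the gene.

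Kcnj10 shows how sites of a single gene can differ. Its gene-end site, 75 bp from the start, fell by 3.54 ± 0.67. The flanking site 1675 bp downstream rose by 4.53 ± 0.86, and the overlapping pair at 8850 and 9192 bp rose by 3.01 ± 0.34 and 2.47 ± 0.36. Toward the finish, one site was uncalled at -0.13 ± 0.28 and another fell by 2.28 ± 0.56. F11r had the same order: 3 sites near the start rose, by 4.04 to 5.04, and 2 near the finish fell, at -3.60 ± 1.30 and -2.59 ± 0.71.

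Of the 1148 genes, 663 had a single flanking site and 485 had several. Among those 485, the called sites only fell at 204 genes, only rose at 117 and went both ways at 90, and no site was called at 74. Where at least 2 sites were called (221 genes), all fell at 91 and all rose at 40, beside 37.7% falls and 19.7% rises over all flanking sites. Sites inside and outside the same gene were both present at 232 genes. Of the 55 genes with 4 or more sites, 24 had calls in both directions, 21 falls only, 7 rises only and 3 no call (Ncoa7, Nek2 and Spata48).

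All 4 sites fell at 3 genes and at none of the 55 did every site rise. These counts were not tested against the shares over all flanking sites, 37.7% lower and 19.7% higher. Zdbf2, an imprinted gene, had falls of -2.40, -3.79, -3.46 and -3.68, beside -4.95 ± 1.16 at its gene end. Arfgef3 had falls from -3.78 to -4.72, and Slamf9 from -2.49 to -4.09. At Prdm14, a repressor gene of the naive pluripotent state, 4 of 5 sites fell, and 2 of those falls overlap. Spred2, a gene for an inhibitor of Ras-ERK signalling, had the most sites. Of its 8, 5 rose (0.89 to 3.65, 3 of them within 1132 to 1790 bp of the start) and 2 fell, and its gene-end site rose by 0.82 ± 0.25. Those 3 rises near the start overlap in a chain and so share reads. At Plxna2, a semaphorin receptor gene, sites on one side of the start differed from each other: those 9055 and 3558 bp upstream fell, at -2.42 ± 0.97 and -4.63 ± 1.02, and the one 6168 bp upstream rose by 3.19 ± 0.94. Inside that gene a site at 9642 bp rose by 5.66 ± 0.98, and the gene-end site was uncalled at -0.03 ± 0.28. Pald1 had rises of 4.91 ± 0.85 and 5.44 ± 1.13 on either side of its start and falls of -1.39 ± 0.73 and -3.64 ± 1.08 at its finish. Gpr55, a lysophospholipid receptor gene, had 3 rises (3.29 to 4.66) and a fall of -4.43 ± 1.19. Timp3, an inhibitor of matrix proteases, and Nudcd3 had 3 rises and no fall each, and 2 of the Timp3 rises overlap.

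Gene lists place the sites among known roles; 19.7% of all flanking sites rose and 37.7% fell, and each list is read beside those shares, with no test of the lists. Pluripotency genes stood at one end. Of 17 sites at 8 such genes, 14 fell, none rose, and the median was -3.29. At Tfcp2l1, a factor of naive pluripotency, the overlapping sites 2490 and 2188 bp upstream fell, at -5.65 ± 1.14 and -5.03 ± 1.00, a site inside fell by 3.07 ± 0.98, and the gene-end site stood at -1.77 ± 0.41, also a fall. At Nodal, a TGF-beta family ligand, sites upstream and inside fell, at -5.12 ± 1.16 and -3.86 ± 1.06. The falls at Prdm14 ran from -1.86 to -5.09, and those at Nr5a2 were -1.45 ± 0.50 and -4.83 ± 0.75. Lefty2, an inhibitor of Nodal, had a fall of -3.29 ± 0.93, and the DNA methylation pathway genes Dnmt3l and Tet1 had falls of -3.31 ± 1.10 and -2.59 ± 0.94. The exceptions were uncalled: 0.24 ± 0.40 at Lif, 1.55 ± 0.89 at the far site of Nr5a2 and -2.27 ± 1.595 at Prdm14.

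Neural progenitor genes had 18 sites at 10 genes, of which 7 rose and 3 fell, with a median of 0.48. Meis1, a homeobox factor gene, supplied 4 of the rises: 1.81 ± 0.33 and 1.73 ± 0.42 at overlapping sites past its finish, and 2.59 ± 0.80 and 3.503 ± 0.91 inside. A Meis1 site upstream of the start fell by 1.899 ± 0.96. Pou3f3, a neural POU factor gene, rose by 1.62 ± 0.53 and Lhx4 by 2.79 ± 1.24. The Fabp7 site 7638 bp upstream was uncalled at 1.81 ± 1.46, whereas the gene-end site of this radial glial gene rose by 3.54 ± 0.42. With p-values recomputed from the fold changes, no fall was called when centred on all listed sites and 1 without centring; the rises were then 7 and 6. The median was 0.76 centred on all listed sites and 0.29 centred on gene-end sites.

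Genes of differentiated neurons had 21 sites at 11 genes, of which 9 fell (42.9%) and 3 rose (14.3%), near the shares over all flanking sites. Their median was -1.68, and -1.03 with 1 site per group of overlapping sites. Map2, the dendritic microtubule protein gene, had -3.33 ± 0.93 at 1433 bp upstream and 3.74 ± 0.79 at 2714 bp inside, with its gene end uncalled at 0.19 ± 0.26. Camk2b, a synaptic kinase gene, had -2.83 ± 0.71 and 5.86 ± 1.16 at 1947 and 9559 bp upstream. Kif21b and Cntn2, a kinesin and an axonal adhesion gene, had falls of -5.10 ± 1.15 and -4.37 ± 1.03. At Nrp2, a semaphorin receptor gene, 3 of 4 sites were uncalled between -0.38 and -0.05 and the fourth fell by 4.06 ± 1.04. Of 9 sites at 3 glial genes, 4 rose and 2 fell; 3 of the rises were at Kcnj10, where 2 of the sites overlap. Their median was -0.13, and 0.16 when centred on all listed sites. Of the Gja1 sites in this list, the one upstream fell, as given above, and the one 1816 bp inside was uncalled at -0.29 ± 0.35.

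Mesenchyme and matrix genes had 34 sites at 15 genes, with 10 rises, 7 falls and a median of 0.70. Timp3 sites rose by 1.04 to 1.95, and Tgfb2, a growth factor gene, had rises of 4.57 ± 1.02 and 2.87 ± 0.54. Fn1 and Lamc1, which encode fibronectin and a laminin chain of basement membranes, had falls only, of -6.06 ± 1.15 and -4.26 ± 1.03 for Fn1 and -4.65 ± 1.17 for Lamc1, and Lamb3 had 1 of each, at 4.03 ± 0.78 and -4.17 ± 1.21. The mesoderm and endoderm list had 4 sites. Those of Sox17, the endoderm factor, fell, at -3.91 ± 0.65 and -3.56 ± 0.73, and its rise was at Mael, a germline gene that does not belong with the rest.

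Signalling genes had 33 sites at 18 genes, with 11 falls and 8 rises, or 9 of each when centred on all listed sites. The largest fall of any flanking site, -7.57 ± 1.12, lay 2486 bp inside Dusp27. Fzd5, a Wnt receptor gene, had falls of -5.15 ± 1.15 and -5.54 ± 1.14 inside the gene, with its gene end uncalled at 0.44 ± 0.22. Dusp6, a target and inhibitor of ERK signalling, rose by 2.03 ± 0.36 past its finish. Gli2, a Hedgehog effector gene, had sites 4404 and 5217 bp downstream of its start that went opposite ways, at 1.42 ± 0.53 and -2.13 ± 0.57. Irs1, an insulin receptor substrate gene, had 1.42 ± 0.32 inside and -1.36 ± 0.33 upstream.

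At genes that nearly all cells express, falls were counted in the same way. Ribosome and translation genes had 13 sites at 9 genes with 6 falls (46.2%), no rise and a median of -1.48; 2 of the uncalled sites were at Rps6kc1, a kinase-family gene that does not belong with the rest. Eif2d, an initiation factor gene, had -5.07 ± 0.85 and -3.04 ± 0.85, and Mrpl30, a mitochondrial ribosome gene, had -2.04 ± 0.84 at the flank and 1.25 ± 0.35 at the gene end. Eef2, elongation factor 2, was uncalled at 0.06 ± 0.38. Oxidative phosphorylation genes had 8 sites, of which 5 fell and 1 rose, and 1 of the falls was at Cyb5r1, a reductase gene outside the respiratory complexes. With p-values recomputed, 3 fell when centred on all listed sites or not centred, and 5 when centred on gene-end sites. At Ndufs1, a complex I subunit gene, sites fell, at -3.69 ± 1.27 and -3.43 ± 0.81, with the gene end at 0.38 ± 0.30, and at Ndufa12 the site rose by 3.72 ± 0.58 with the gene end at -0.05 ± 0.28. Cell cycle and replication genes had 21 sites with 9 falls (42.9%) and 3 rises. With 1 site per group of overlapping sites, 7 of 19 fell and 3 rose. Cdk2 fell by 5.60 ± 1.17 upstream with its gene end at 0.10 ± 0.30, the overlapping sites of Timeless fell, at -4.85 ± 1.16 and -4.89 ± 1.16, and Cenpf, a kinetochore gene, rose by 4.54 ± 1.02.

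Chromatin and DNA methylation genes had 15 sites with 5 falls and no rise, at Dnmt3l, Hdac4, Smyd3 (2 sites) and Tet1. Genes of the SP and KLF family, to which SP1 belongs, had 6 sites at 3 genes. Klf7 had a rise of 4.30 ± 1.19, 6119 bp inside, Klf16 a fall of -1.31 ± 0.59 outside the gene, and Sp100, a nuclear body gene whose name resembles but whose protein is not of the family, a fall of -3.80 ± 1.26.

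**Figure D5:**
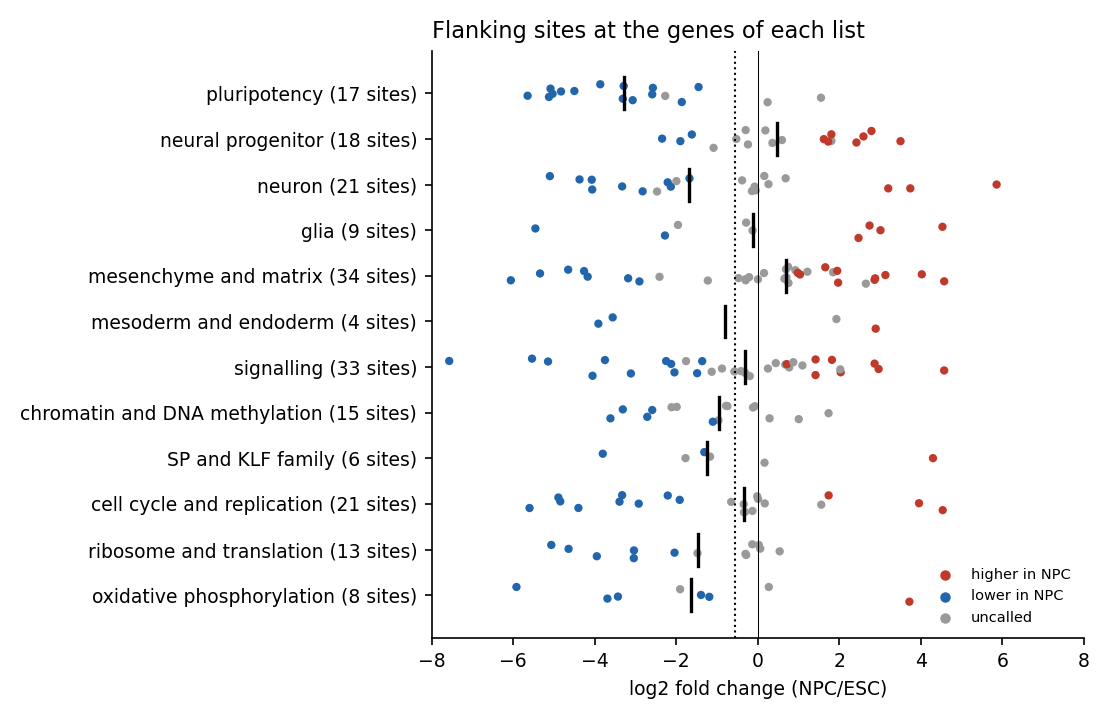
Log2 fold change (NPC over ESC) of each flanking site at the genes of 12 lists, coloured by call (red higher, blue lower, grey uncalled); black bars are list medians and the dotted line is the median of all flanking sites, -0.57. Pluripotency sites lie furthest to the left, with a median of -3.29 and no rise, and mesenchyme and matrix sites furthest to the right, with 0.70.

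At the inner threshold, the nearest sites left out were at Esyt1 (996 bp, -1.92), Gpr37l1 (990 bp, 4.62) and Kif1a (988 bp, -0.92), and the nearest taken were at Gm38664 (1002 bp, 1.02), Cabin1 (1002 bp, 0.03) and Stau2 (1005 bp, 0.41). At the outer threshold the last taken were at Zup1 (9996 bp, -3.25), Aldh1l2 (9980 bp, 1.901) and Limk2 (9971 bp, -3.26), and the first left out at Fam163a (10008 bp, 0.02), Crocc2 (10034 bp, 5.49) and Samd5 (10040 bp, 3.86). All are log2 fold changes from the authors' deposited table. That a site lies near a gene is no evidence that it regulates that gene.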

How the data were processed

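ATAC-seq of 3 ESC and 3 NPC libraries had been processed by the submitters; their processing notes name mm10, BWA 2.1, Picard 2.23.8, MACS2 2.2.7, SAMtools 1.9 and DESeq2, without roles or settings. How the SP1 sites were chosen, and any shift of reads for the Tn5 offset, were not found in these sources; either could change counts per site or the balance of rises and falls. Per the file headers, the authors deposited for each site a mean signal (normalized count), a log2 fold change with its standard error, a p-value and an adjusted p-value. Only the table's name gives the direction, NPC over ESC, and coordinates are printed as deposited, whether they count from 0 or 1 not being stated.

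Each site was assigned to its nearest protein-coding gene end in RefSeq's GRCm38.p6 table (Python 3.11.15, pandas 2.3.3, SciPy 1.17.1, statsmodels 0.14.6). A site was called at a deposited adjusted p below 0.05. The members, the 12 gene lists and the rules were chosen with earlier results of these data known, and Dnmt3l, Tet1 and Tgfb2 stand in 2 lists each. Named were, inside and outside and for rises and falls, the 6 sites of smallest adjusted p, 1 per gene; the 3 uncalled sites of highest signal; the 5 pairs of largest opposite difference each way; genes with 4 or more sites; and list genes; a few of these are not reported here. Classes were described by counts, medians and 95% Wilson intervals, without tests. GC boxes were sought as GGGCGG on both strands, and other motifs were not. Scripts were tested on simulated data. Exons and introns were not analysed here.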

Additional observations from a re-analysis of the deposited data

How the results depend on the processing

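Among 116 values recomputed under other settings, only the medians could change direction, because a share is never negative. No median did, though settings that alter only the calls leave the median unchanged by definition. Of the 116 values, 108 stayed near the main value: shares within 1.5 times of it, medians within its 95% interval over sites (-0.72 to -0.40). The flanking median log2 fold change of -0.57 became -0.28 when centred on all listed sites, -0.34 with sites at most 5000 bp from the end, -0.15 with sites at or above the median signal of all listed sites, and -0.75 when centred on gene-end sites. Pairs in which the flanking site was lower and the gene end higher, 8.69% as reported, were 4.20% at an adjusted p below 0.01, 4.39% with a log2 change above 1 also required and 4.79% when centred on gene-end sites. Pairs of the reverse kind, 3.52% as reported, were 1.66% at an adjusted p below 0.01. Falls outnumbered rises among called flanking sites under each setting, with rises making up 34.4% of calls as reported, 29.5% when centred on gene-end sites and 42.4% when centred on all listed sites. Centring on gene-end sites, leaving out sites on promoter windows and leaving out chromosome 11 were chosen after seeing the data. No paired analysis was possible because the deposited table holds no value per library; for the same reason no replicate could be left out. Depth limits single sites: 692 flanking sites had a mean signal below 5. With p-values recomputed from fold change over standard error, 583 fell (31.3%) and 303 rose (16.3%), against 37.7% and 19.7% as reported. Centred on all listed sites as well, 27.4% fell and 20.1% rose. Centred on gene-end sites, 33.4% fell and 14.0% rose. Inside the gene, falls were 24.6% when centred on all listed sites, against 35.7% as reported. All these shifts lie within the 1.5 times counted as near.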
